A study of Homo sapiens with 8 samples.

Results

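The genes described here are 9 messenger RNAs reported as targets of miR-221 and miR-222, a pair of microRNAs, and grouped apart from the cell cycle targets: the receptor genes KIT and ESR1, the transcription factor genes ETS1, TRPS1 and FOXO3, the signalling regulators PPP2R2A and DDIT4, and the protease inhibitor genes TIMP3 and RECK. They were taken by name from the platform annotation, and the rule uses no measured difference, although the list was drawn up with earlier results of these data known. A gene was represented by the transcript cluster (a set of probes summarised together) whose only annotated symbol is that gene, or by the brightest of several. All 9 had such a cluster, out of 18417 genes represented in this way on 8 arrays. The arrays cover U266/LR7, a human myeloma line resistant to the alkylating drug melphalan, and its parent U266/s, both established cell lines. In each line there was an array for melphalan (100 µM) together with miR-221/miR-222 inhibitors (100 nM), an array for melphalan alone, an array for inhibitors alone, and an array for cells given a negative control oligonucleotide. Total RNA was collected 12 h after treatment. No condition was repeated, and the labels do not say whether arrays came from separate cultures. The 2 arrays with melphalan alone carry the transfection tag "none", whereas the protocol reads as if they also received the control oligonucleotide.

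MicroRNAs are short RNAs that guide the silencing complex to messenger RNAs, mostly through pairing of the seed near their 5′ end with sites in the 3′ untranslated region. Pairing lowers translation and often also shortens the life of the message, so an antisense inhibitor can raise targets at the RNA level, at the protein level alone, or not measurably. The pair miR-221 and miR-222 is expressed from neighbouring hairpins and is best known for repressing the CDK inhibitor genes CDKN1B and CDKN1C. The genes here are targets reported from other tumours and cell types. In myeloma, a tumour of plasma cells, their part is less settled.

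The mature sequences are shown because the reported targeting is through pairing with them; sites in the 9 messages were not analysed here. They are the RefSeq entries on GRCh38.p14, written 5′ to 3′ with the seed, bases 2 to 8, in capitals. The hairpins lie on the minus strand of chromosome X with 748 bases between them; miR-221-3p is at chrX:45746180-45746202, miR-222-3p at chrX:45747036-45747056 and miR-222-5p at chrX:45747073-45747094.
miR-221-3p: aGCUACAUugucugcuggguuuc
miR-222-3p: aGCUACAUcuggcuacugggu
miR-222-5p: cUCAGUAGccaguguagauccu
The 3p arms share their first 8 bases and 11 of the 21 positions compared from base 1. Among 2370 mature names in that table, only these 2 carry the seed GCUACAU, so a site reading AUGUAGC in a message pairs with both. The 5p arm of miR-222 has a seed of its own.

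Signal is given as the deposited log2 value, so a difference of 1 is a doubling. Levels of different genes are not compared, since clusters differ in their probes. Lower quartiles of the genes lay between 5.81 and 6.02 on the 8 arrays, and signal under that value is called low below. The distance between quartiles was 2.75 and 2.80 on the U266/s arrays with melphalan, alone and with inhibitors, against 3.08 to 3.31 on the other 6. Plasma cell markers fitted the label, with 6 of 8 above the median on all arrays, among them IRF4, PRDM1 and SDC1. CD38 was above it on 4 arrays and MZB1 on 5. Of 17 measured markers for other cell types (B, T and NK, myeloid, mast and stromal), 0 were above the median on all arrays and 7 were under the lower quartile on all. Some were above the median on part of the arrays, COL1A1 on 7, CD8A on 6, CD68 on 5, and CD14 and NKG7 on 2 each. In such bulk RNA, fewer cells expressing a gene and less RNA per cell cannot be told apart.

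**Figure D1:**
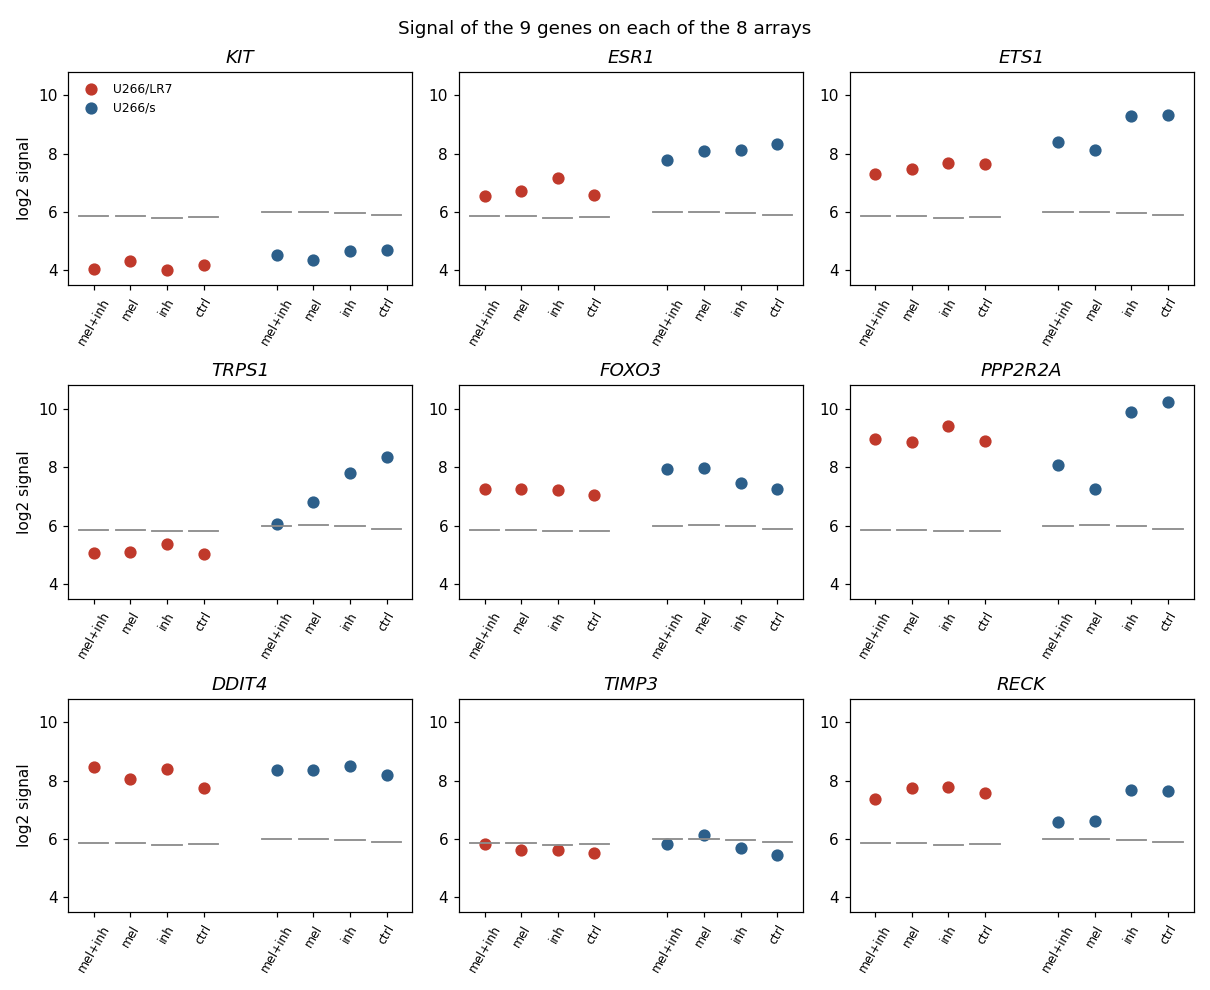
Log2 signal (vertical axis) of the 9 genes on the 8 arrays, with U266/LR7 in red at left and U266/s in blue at right, each in the order melphalan with inhibitors (mel+inh), melphalan (mel), inhibitors (inh) and control (ctrl). Each point is 1 array and each grey bar the lower quartile of all genes on that array; KIT lies under the bar on 8 of 8 arrays, and PPP2R2A, TRPS1, ETS1 and RECK lie lower with melphalan in U266/s.

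Whether inhibition of miR-221/miR-222 raised these targets was asked in 4 matched pairs of arrays, 2 in each line. None of the 9 genes passed the test. DDIT4 alone was higher with inhibitors in 4 of 4 pairs, as were 7.4% of all genes. By the clusters used, TRPS1 and ESR1 were lower in 2 of 2 pairs of U266/s. In U266/LR7 KIT was lower in 2 of 2 pairs, and DDIT4, PPP2R2A, TIMP3 and FOXO3 were higher in both. The share of all genes with 2 such pairs in a line was not counted. Among the clusters used, PPP2R2A had the widest single difference, 0.82 in U266/s under melphalan, but pointed down in U266/s without it. The model (limma, with a level for each line and melphalan state and a term for inhibitors, adjusted over all genes) called 0 of 9 members at an adjusted p under 0.05, and 1 had an unadjusted p under 0.05. Over all genes it called 0.0434% (8 of 18417), and 1161 of 18417 had an unadjusted p under 0.05. Within U266/LR7 it called 0 of 9 members against 0.0434% of all genes, and within U266/s 0 of 9 against 0%. In each line 1 member had an unadjusted p under 0.05. Of all 18417 genes, 799 did in U266/LR7 and 1396 in U266/s. The median difference of the members over the 4 pairs was 0.014, beside 0.0056 for all genes.

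**Figure D2:**
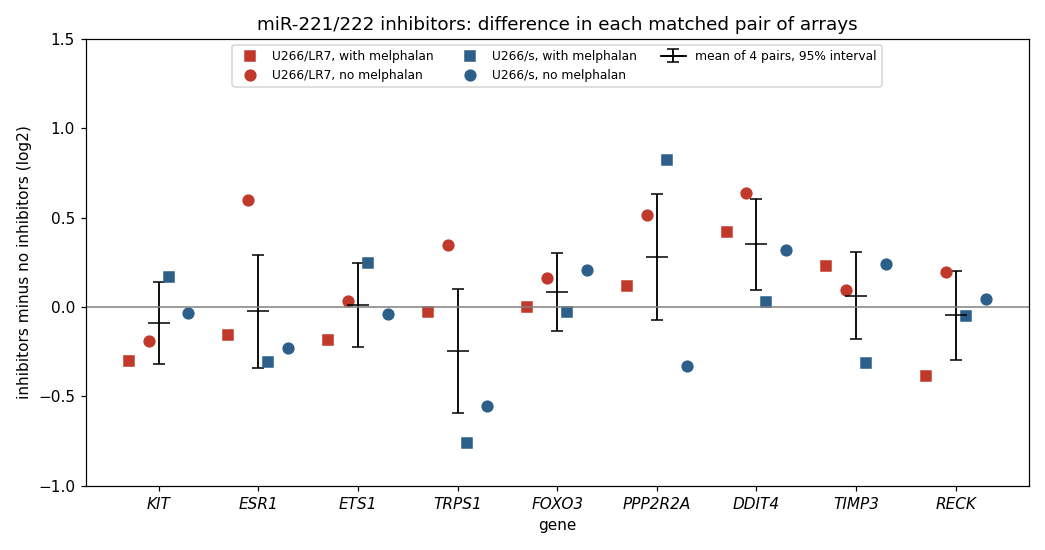
Difference in log2 signal between inhibitors and no inhibitors (vertical axis) for the 9 genes; squares are pairs with melphalan and circles pairs without it, in red for U266/LR7 and blue for U266/s, and the black bar is the mean of 4 pairs with its 95% interval from the model. The interval includes 0 for 8 genes and runs from 0.095 to 0.61 for DDIT4, whose adjusted p was 0.626.

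DDIT4 encodes REDD1, a stress-induced inhibitor of the growth kinase complex mTORC1. Its signal in U266/LR7 was 8.40 with inhibitors and 7.76 with control oligonucleotide, and under melphalan 8.46 with and 8.04 without inhibitors. In U266/s it was 8.49 with inhibitors and 8.18 with control, and 8.38 with and 8.35 without inhibitors under melphalan. Signal was thus higher with inhibitors in both pairs of U266/LR7, while in U266/s the pair under melphalan was nearly level. The mean difference was 0.35 ± 0.12 (SE, 4 pairs; unadjusted p = 0.0116, adjusted p = 0.626, limma), with 0.53 ± 0.15 in U266/LR7 and 0.17 ± 0.15 in U266/s. The difference between the lines was 0.35, with a 95% interval from -0.12 to 0.82 (adjusted p = 0.886). Of all genes, 7.4% were higher in all 4 pairs and 6.79% lower in all 4.

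PPP2R2A encodes the B55α regulatory subunit that directs protein phosphatase 2A (PP2A) to substrates such as AKT. In U266/LR7 its signal was 9.41 with inhibitors and 8.90 with control, and 8.97 with and 8.85 without inhibitors under melphalan. In U266/s it was 9.90 with inhibitors and 10.23 with control, but under melphalan 8.08 with and 7.26 without inhibitors. The pair of U266/s without melphalan thus ran against the other 3. The mean difference was 0.28 ± 0.16 (SE; 95% interval -0.07 to 0.63; adjusted p = 0.856, limma), and the SD between the 4 pairs, 0.50, exceeded it.

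TRPS1 encodes a GATA-type transcriptional repressor. In U266/s its signal was 7.80 with inhibitors and 8.35 with control, and 6.05 with and 6.81 without inhibitors under melphalan. In U266/LR7 the signal was low throughout, at 5.36 with inhibitors and 5.01 with control, and at 5.06 with and 5.09 without inhibitors under melphalan. The U266/s difference of -0.66 ± 0.14 (SE; unadjusted p = 0.0011) was downward and did not pass after adjustment (adjusted p = 0.459, limma). The difference between the lines (U266/LR7 minus U266/s) was 0.82, with an interval from 0.36 to 1.27 (adjusted p = 0.886).

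The receptors differed little on average. ESR1, the estrogen receptor α gene, had 7.18 with inhibitors and 6.58 with control in U266/LR7, and 6.55 with and 6.70 without inhibitors under melphalan. In U266/s it had 8.11 with inhibitors and 8.34 with control, and 7.79 with and 8.10 without inhibitors under melphalan. It was thus higher with inhibitors in 1 of 4 pairs, with a mean of -0.02 (interval -0.34 to 0.29). A second ESR1 cluster of lower signal differed by 0.18 and -0.07 in U266/LR7, without and with melphalan, and by 0.08 and 0.10 in U266/s. The direction for ESR1 thus depends on the cluster read. KIT, the receptor tyrosine kinase for stem cell factor, had low signal on 8 of 8 arrays, between 4.01 and 4.69. Its mean difference was -0.09 (interval -0.32 to 0.14), higher in 1 of 4 pairs. A rise that starts near background is understated on this scale, so these arrays bear little on KIT.

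ETS1, a transcription factor of lymphoid cells and endothelium, differed by 0.04 and -0.19 in U266/LR7, without and with melphalan, and by -0.04 and 0.24 in U266/s. Its mean was 0.01 (interval -0.22 to 0.25). FOXO3, a transcription factor held in the cytoplasm by AKT, differed by 0.16 and 0.0006 in U266/LR7 and by 0.21 and -0.03 in U266/s, with a mean of 0.09 (interval -0.13 to 0.30). A brighter cluster annotated to FOXO3 and to its copy FOXO3B together, left out for its double annotation, was lower with inhibitors in 4 of 4 pairs, by differences between -0.36 and -0.18. TIMP3, a matrix-bound inhibitor of metalloproteinases, had low signal on 7 of 8 arrays, where a rise is understated as for KIT, and a mean of 0.06 (interval -0.18 to 0.31). A second, dimmer TIMP3 cluster differed by -0.115 and -0.008 in U266/LR7, without and with melphalan, and by 0.08 and -0.91 in U266/s. RECK, a membrane-anchored inhibitor of metalloproteinases, had a mean of -0.05 (interval -0.30 to 0.20) and was higher in 2 of 4 pairs.

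Pair by pair, the members were most often higher with inhibitors in U266/LR7 without melphalan, where 8 of 9 lay above 0, with a median of 0.20. Differences of at least 0.5 either way were found there for ESR1, PPP2R2A and DDIT4, 3 of 9 members against 8.47% of all genes. In U266/LR7 with melphalan 4 of 9 lay above 0, and 0 reached 0.5, against 1.67% of all genes. In U266/s without melphalan 4 of 9 lay above 0, and TRPS1 reached -0.55, against 3.56% of all genes past 0.5. In U266/s with melphalan 4 of 9 lay above 0, and PPP2R2A at 0.82 and TRPS1 at -0.76 passed 0.5, against 7.76%. Of all genes 49.1%, 47.3%, 53.1% and 52.2% lay above 0 in the 4 pairs, in the order given. The pair values are differences of 1 array from 1 array and carry no test. The change of the inhibitor difference with melphalan was called for 0 of 9 members (0 under an unadjusted p of 0.05), against 0.0217% of all genes. Its change between the lines was called for 0 of 9 members and for 0% of all genes. TRPS1 was the 1 member under an unadjusted p of 0.05 there (limma), as were 1006 of all 18417 genes. The pairs under melphalan also hold the difference in transfection if the tags are right.

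A further 26 measured genes reported as miR-221/miR-222 targets, including CDKN1B, CDKN1C and BBC3, were set beside the members. None was called for inhibitors over all pairs or within a line. Their median difference was 0.05 over the 4 pairs, and 0.10 in U266/LR7, where all genes had -0.0053. In U266/LR7 without melphalan, 21 of 26 were above 0 (median 0.11), as were 49.1% of all genes, whereas in the other pairs 12 to 15 of 26 were. In that same pair 13 of 14 genes of KIT signalling lay above 0 (median 0.39), against 5 of 14 under melphalan in the same line. It was the highest of 9 list medians in that pair, singled out after the values were seen. The lists for the estrogen receptor, PP2A and FOXO had 9 of 13, 15 of 25 and 17 of 26 above 0, with medians of 0.13, 0.06 and 0.04. The lists for ETS, metalloproteinases, GATA factors and mTORC1 had 12 of 25, 11 of 24, 7 of 17 and 10 of 21 above 0, with medians between -0.09 and -0.04. The clusters of the hairpin genes themselves had low signal, MIR221 on 8 of 8 arrays and MIR222 on 7 of 8. In U266/s, MIR222 had 6.20 with inhibitors and 4.03 with control, and 5.96 with and 4.73 without inhibitors under melphalan. Only the first of these 4 values lay above the lower quartile, so no fold is given. MIR221 in U266/s had 5.97 with inhibitors and 5.24 with control, and 5.28 with and 4.69 without inhibitors under melphalan. Neither gene was called for inhibitors in either line. MIR221 was called lower with melphalan in U266/s (adjusted p = 0.0165, limma), at low signal. The part of the MIR221 and MIR222 signal in the values above was not tested.

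Melphalan, which crosslinks DNA, changed 5 of the 9 genes in U266/s. PPP2R2A, TRPS1, RECK and ETS1 fell and FOXO3 rose, where 43.4% of all genes changed, 24.9% lower and 18.4% higher. In U266/LR7 it changed 0 of 9 (0 under an unadjusted p of 0.05), where 6.62% of all genes changed. The difference in response between the lines was called for 4 of 9, PPP2R2A, TRPS1, RECK and ETS1, each with the smaller fall in U266/LR7, against 23.9% of all genes. For 17.9% of all genes it was called with a positive value, U266/LR7 minus U266/s, as for these 4. The share of members called in U266/s is near that of all genes. Tests were made with limma on 2 arrays against 2 in each line. If the tags are right, the melphalan pairs without inhibitors set untransfected cells against cells given the control oligonucleotide, and this difference cannot be told apart from melphalan within those pairs.

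**Figure D3:**
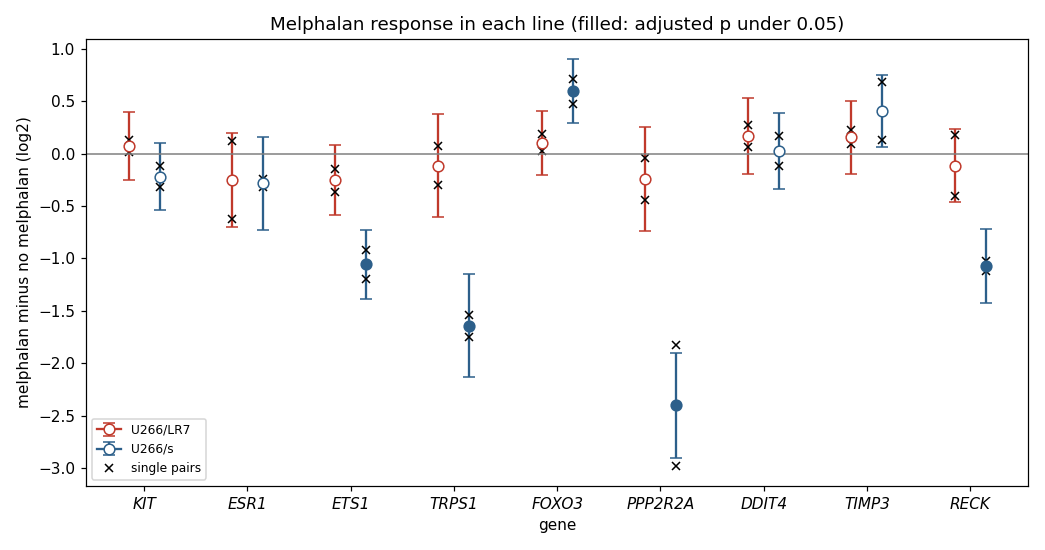
Difference in log2 signal between melphalan and no melphalan (vertical axis) for the 9 genes, in red for U266/LR7 and blue for U266/s; circles are means of 2 pairs with 95% intervals from the model, filled where the adjusted p was under 0.05, and crosses are the single pairs. PPP2R2A fell by 2.40 in U266/s and was at -0.24 in U266/LR7, and no interval of U266/LR7 excludes 0.

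PPP2R2A had the largest fall. In U266/s its signal was 7.26 with melphalan and 10.23 with control, and 8.08 with melphalan and inhibitors and 9.90 with inhibitors alone. In U266/LR7 it was 8.85 with melphalan and 8.90 with control, and 8.97 with both agents and 9.41 with inhibitors alone. Signal with melphalan was thus below that without it in all pairs, with differences of -2.98 and -1.83 in U266/s but -0.04 and -0.44 in U266/LR7. PPP2R2A fell by 2.40 ± 0.23 in U266/s (SE; adjusted p = 1.45e-05), a value below which 0.331% of genes lay. The difference between the lines was 2.16 ± 0.32 (adjusted p = 0.000798). Whether inhibitors altered the fall within U266/s, where the pair with inhibitors fell less, was not tested, with 1 array per condition.

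TRPS1 fell by 1.64 ± 0.22 in U266/s (adjusted p = 0.00015), with differences of -1.54 in the pair without and -1.75 in the pair with inhibitors. In U266/LR7 it stood at -0.11 ± 0.22, from a signal already under the lower quartile. RECK had 6.62 with melphalan and 7.65 with control in U266/s, and 6.58 with both agents and 7.69 with inhibitors alone. In U266/LR7 RECK had 7.75 with melphalan and 7.57 with control, and 7.37 with both agents and 7.77 with inhibitors alone. It fell by 1.07 ± 0.16 in U266/s (adjusted p = 0.000286) and was at -0.11 ± 0.16 in U266/LR7, where its pairs had opposite signs. The difference between the lines, 0.96 ± 0.23 (adjusted p = 0.00995), was not called without the U266/LR7 melphalan array (0.73, adjusted p = 0.0929).

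ETS1 had 8.14 with melphalan and 9.34 with control in U266/s, and 8.38 with both agents and 9.30 with inhibitors alone. In U266/LR7 it had 7.49 with melphalan and 7.63 with control, and 7.30 with both agents and 7.67 with inhibitors alone. ETS1 fell by 1.06 ± 0.15 in U266/s (adjusted p = 0.000213) and was at -0.25 ± 0.15 in U266/LR7 (adjusted p = 0.413). The difference between the lines was 0.80 ± 0.21 (adjusted p = 0.0181). It was not called without the U266/LR7 melphalan array (0.67, adjusted p = 0.144), without the U266/s control (0.77, adjusted p = 0.0835) or melphalan array (0.65, adjusted p = 0.0922), or after a further quantile normalization (0.50, adjusted p = 0.105).

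FOXO3 was the member that rose. It had 7.97 with melphalan and 7.25 with control in U266/s, and 7.94 with both agents and 7.46 with inhibitors alone. In U266/LR7 all 4 values lay between 7.06 and 7.24. It rose by 0.60 ± 0.14 in U266/s (adjusted p = 0.0053) and was at 0.10 ± 0.14 in U266/LR7, and the difference between the lines was not called (-0.49, adjusted p = 0.097). The rise was not called without the U266/s control (0.51, adjusted p = 0.0691) or without its melphalan array (0.52, adjusted p = 0.0563). The cluster shared with FOXO3B ran the other way, with differences of -0.13 and -0.24 in U266/s and -0.11 and -0.09 in U266/LR7. The direction for FOXO3 thus depends on the cluster read.

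The other 4 members were not called in either line. TIMP3 stood at 0.41 ± 0.16 in U266/s (adjusted p = 0.0566), with 6.13 under melphalan alone, its highest value, and 5.45 with control, and 5.82 with both agents and 5.69 with inhibitors alone. It was called without the U266/s array with both agents (0.66, adjusted p = 0.0126) and after median centring (0.47, adjusted p = 0.0313). The dimmer TIMP3 cluster had a similar split in U266/s, with 0.79 in the pair without and -0.20 in the pair with inhibitors. DDIT4 differed by 0.03 in U266/s and 0.17 in U266/LR7, with intervals from -0.33 to 0.39 and from -0.19 to 0.53. ESR1 differed by -0.28 in U266/s and -0.25 in U266/LR7, and without the U266/LR7 control array the value for that line became -0.67 (adjusted p = 0.0344). KIT, at low signal, differed by -0.22 in U266/s and 0.07 in U266/LR7.

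Properties of the U266/s arrays moved with these falls. The signal range was narrower with melphalan, as given above, and calls differed by gene span. Of 5657 protein-coding genes that span at least 50 kb in the GRCh38.p14 annotation, 44.5% fell in U266/s and 7.14% rose, against 17.9% and 22.2% of 11246 shorter ones. TRPS1 spans 260 kb, ETS1 129 kb, RECK 87.5 kb and PPP2R2A 81.2 kb, while DDIT4 spans 2.11 kb. ESR1 (473 kb), KIT (82.8 kb) and TIMP3 (61.3 kb) are long as well and were not called, and FOXO3 (125 kb) rose. Thus 4 of the 8 long members fell. Of 4 myeloid markers, CD68 (1.88, adjusted p = 1.17e-05, limma) and CD14 (1.47, adjusted p = 1.76e-05) rose in U266/s, while LYZ stayed under the lower quartile on 8 of 8 arrays and CSF1R was not called. Their summed linear signal was 742 to 779 with and 288 to 328 without melphalan in U266/s, and 399 to 490 with and 307 to 370 without it in U266/LR7, where CD14 rose (0.55, adjusted p = 0.0449). Among T and NK cell markers CD8A and NKG7 rose in U266/s, 2 of 4, and among 8 plasma cell markers 5 fell and 1, SDC1, rose. The part of signal range, gene span and marker genes in the members' changes was not tested.

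Genes that work with the members were counted from lists drawn up by role. Of 25 PP2A subunits and regulators, 13 fell and 1 rose in U266/s (median -0.44, against 0.08 for all genes), among them STRN3 (-2.25), PPP2R3C (-1.49), CIP2A (-1.40), which encodes a PP2A inhibitor, and PPP2R2D (-1.35), the B55δ subunit gene. In U266/LR7 STRN3 fell (-0.78) and PPP2R5B rose (0.55). Of 17 GATA factors and TRPS1 partners, 8 fell and 2 rose in U266/s, with ZEB2 at -1.36, ZFPM2 at -1.24, RUNX2 at -1.18 and IKZF1 at -1.17. Of 25 other ETS family genes, 7 fell and 5 rose, with ELF1 at -2.52, GABPA at -1.31, FLI1 at -1.21 and ETS2 at -1.07. Of 14 KIT signalling genes, 7 fell and 1 rose in U266/s, led by LYN (-2.20), SOS1 (-2.10), PIK3R1 (-1.77) and FYN (-1.56). In U266/LR7 MITF (-1.47), FYN (-1.24) and GAB2 (-1.08) fell and SHC1 rose (0.52).

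Of 24 other metalloproteinases and inhibitors, 4 fell and 2 rose in U266/s. MMP16 (-2.08) and the sheddase genes ADAM10 (-1.21), ADAM17 (-1.20) and ADAM9 (-0.69) fell. Among 21 genes of mTORC1 control, 8 fell and 5 rose, with the AMPK subunit gene PRKAA2 at -2.12, the mTOR inhibitor DEPTOR at -1.85, SESN3 at -1.43 and the stress gene DDIT3 at 1.41. Of 26 FOXO factors, regulators and targets 5 fell and 6 rose, including SESN3, CDKN1B (-1.07), GADD45B (1.27) and IRS2 (0.68). In U266/LR7 3 of the 26 rose, TXNIP (1.40), BCL6 (0.95) and ATG14 (0.63), and 1 fell, INSR (-0.70). Of 13 estrogen receptor partners and targets 5 fell and 4 rose in U266/s, with the corepressor gene NRIP1 at -2.75, CCND1 at 1.10, NCOA2 at -1.03 and XBP1 at -0.67. Of the 26 other miR-221/miR-222 targets 10 fell and 7 rose, with FOS at 2.77, RB1 at -2.55, TNFSF10 at -2.08 and PIK3R1 at -1.77. Calls are those of single genes, to be read against the 24.9% lower and 18.4% higher of all genes; no list was tested as a set, and several lists share genes such as SESN3 and CDKN1B.

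Without melphalan, 5 of the 9 genes were lower in the resistant line than in its parent, and 0 were higher, where 34.7% of all genes differed (16.9% higher, 17.8% lower). The receptors KIT and ESR1, the transcription factors ETS1 and TRPS1, and PPP2R2A were lower. DDIT4, FOXO3, TIMP3 and RECK were not called. The U266/s arrays without melphalan also enter its melphalan response, so these comparisons share arrays.

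**Figure D4:**
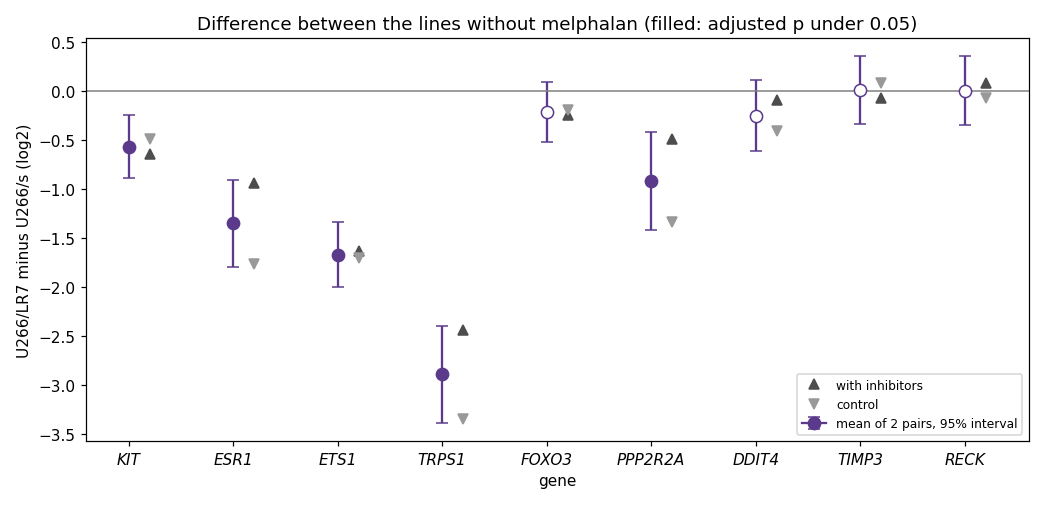
Difference in log2 signal between U266/LR7 and U266/s without melphalan (vertical axis) for the 9 genes; circles are means of 2 pairs with 95% intervals from the model, filled where the adjusted p was under 0.05, and triangles are the pair with inhibitors (up) and the control pair (down). TRPS1, at -2.89, differed most, and the intervals of TIMP3 and RECK are centred near 0.

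TRPS1 had 5.36 and 5.01 in the resistant line against 7.80 and 8.35 in its parent, in each case with inhibitors and with control. The difference was -2.89 ± 0.22 (SE; adjusted p = 1.63e-06, limma). Signal as low as that of TRPS1 in U266/LR7 can understate a difference. ETS1 had 7.67 and 7.63 in the resistant line against 9.30 and 9.34 in its parent, a difference of -1.67 ± 0.15 (adjusted p = 5.75e-06). ESR1 had 7.18 and 6.58 in the resistant line against 8.11 and 8.34 in its parent, a difference of -1.35 ± 0.20 (adjusted p = 0.000271). The ESR1 cluster of lower signal differed by -0.07 and -0.17, so the ESR1 difference rests on the brighter cluster.

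PPP2R2A differed by -0.91 ± 0.23 (adjusted p = 0.00801), with 9.41 and 8.90 in the resistant line against 9.90 and 10.23 in its parent. With melphalan the order of the lines turned, at 8.97 and 8.85 in the resistant line against 8.08 and 7.26 in its parent. The difference without melphalan was not called without the U266/LR7 control (-0.76, adjusted p = 0.0571) or the U266/s control (-0.51, adjusted p = 0.164). KIT differed by -0.57 ± 0.15 (adjusted p = 0.00994) between values that are all low, 4.01 and 4.20 in the resistant line against 4.66 and 4.69 in its parent. It was not called without the U266/LR7 array with inhibitors (-0.50, adjusted p = 0.0776) or that of U266/s (-0.53, adjusted p = 0.0787). DDIT4 stood at -0.25 (interval -0.61 to 0.11), FOXO3 at -0.22 (-0.52 to 0.09), TIMP3 at 0.01 (-0.34 to 0.35) and RECK at 0.003 (-0.35 to 0.35). The cluster shared by FOXO3 and FOXO3B was lower in U266/LR7 by more than FOXO3's own, at -0.74 with inhibitors and -0.80 with control.

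The same lists were counted between the lines. Of 17 GATA factors and TRPS1 partners 9 were lower in U266/LR7 and 0 higher, with IKZF1, the Ikaros gene, at -3.99, GLI3 at -2.96, ZFPM2 at -1.89 and RUNX2 at -1.87 (median -0.45, against -0.04 for all genes). Among ETS family genes 9 of 25 were lower and 5 higher, ETS2 standing at -2.90 but ETV1 at 2.19, ETV4 at 1.70 and ETV5 at 1.42. Of the other miR-221/miR-222 targets 10 of 26 were lower and 4 higher, with PTPRM at -4.46, RB1 at -2.03, BNIP3 at 1.30 and CDKN1B at -1.21. For mTORC1 control 5 of 21 were lower and 2 higher, including SESN3 (-2.65), PRKAA2 (-2.50), DEPTOR (-1.75) and RPTOR (-0.55). The remaining lists had 8 lower and 3 higher of 25 for PP2A, 5 and 3 of 24 for metalloproteinases, 4 and 5 of 14 for KIT signalling, 4 and 3 of 13 for the estrogen receptor, and 8 and 6 of 26 for FOXO.

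Across the 8 arrays most members followed patterns set by line or by melphalan, so correlations largely describe those contrasts and carry no test. DDIT4 and TIMP3 were called for neither. TRPS1 and ETS1 had a Pearson r of 0.96, TRPS1 and ESR1 0.93, and KIT and ETS1 0.90, all genes lower in U266/LR7. PPP2R2A and RECK, which fell in U266/s, had 0.83, and FOXO3 and RECK -0.90. The highest value for DDIT4 was 0.51, with TIMP3. Among about 9080 genes with an SD of at least 0.3, those most like DDIT4 were EVI2B (r = 0.94), IL2RB (0.89) and SLC35G3 (0.85), and only 1 gene passed 0.9. Those most like TIMP3 were FLJ30679 (0.96), PCDHA11 (0.95) and SGSH (0.94), with 26 past 0.9.

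For each other member at least 337 genes passed 0.9, so the closest are 3 of many. They were MAP3K15, LINC02520 and NHERF1 for KIT (r of 0.97 to 0.99), GPRIN3, JADE1 and UBE3C for ESR1 (0.99 each), and KIF16B, SEPTIN11 and MID1 for ETS1 (0.996 to 0.997). For TRPS1 they were MYOM2, FAT4 and ZNF26 (0.993 to 0.995), for FOXO3 KRTAP5-3, COL6A1 and SLC23A1 (0.991 to 0.997), for PPP2R2A ADNP, ABCE1 and VRK2 (0.991 to 0.993), and for RECK UBR2, NAA35 and MTFMT (0.987 to 0.991).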

How the data were processed

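RNA of 8 conditions was measured on 1 array each. Per the submitters' processing notes the authors used Affymetrix Expression Console and RMA, which corrects background, quantile-normalizes arrays and summarises probes; the deposited values are on the log2 scale, and no source used here gives versions, settings or a build. Arrays have no read depth, and their number limits the precision. Of 33297 clusters, 19460 have 1 gene symbol and 1754 several; of those with 1 symbol 19429 matched a RefSeq gene by ID. The brightest cluster represented each of 18417 genes; ESR1 and TIMP3 had 2 clusters.

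Models were fitted across all genes with limma (version 3.58.1, R 4.3.3; empirical Bayes with an intensity trend, Benjamini-Hochberg at 0.05, two-sided). They held 4 levels of line by melphalan plus inhibitors (3 residual degrees of freedom), or inhibitors within each line or melphalan state (2). The members and the lists of partner genes were chosen with earlier results of these data known. All 9 members are named, with up to 4 called genes of each list by size of fold and 3 genes of most similar pattern. No condition was repeated, so the residual of the main fits is the spread of the inhibitor difference between pairs, not between replicates. The p-values for melphalan and for the lines are scaled by that spread as well. No label says that arrays come from separate cultures, so the spread may be technical. Alternatives were an additive fit, no intensity trend, other normalizations, brighter genes only, the mean of a gene's clusters, and leaving out each array.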

Additional observations from a re-analysis of the deposited data

Results flagged for a closer look

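In 4 of the 9 genes the response to melphalan differed between the lines by the interaction term of limma, U266/LR7 minus U266/s: PPP2R2A at 2.16, TRPS1 at 1.53 (adjusted p = 0.00484), RECK at 0.96 and ETS1 at 0.80 log2 units. Of all genes 23.9% were called for this term, 17.9% with a positive value as here. The single pairs showed the same order for each of the 4 members, with the smaller fall or a rise in U266/LR7. TRPS1 had low signal on 4 of 4 arrays of U266/LR7, where a fall is hard to measure. The calls of RECK and ETS1 were lost without certain arrays, as given with their values. Gene span and the narrower signal range of the U266/s melphalan arrays moved with these falls, and their part was not tested.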

How the results depend on the processing

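Under 15 alternative settings, 1143 values of the members were recomputed. Each was compared with its value in the main fit. No value called in either of the 2 changed its sign, 11 lost and 5 gained a call, and 87 called in neither changed sign. The number of members called for inhibitors, over all pairs, within each line, or as a difference between lines or melphalan states, was 0 in every setting run. Among genes above the median signal, 5 members were left to test. Of these, 3 were called for melphalan in U266/s, against 60.5% of 9208 genes. For its difference between the lines 2 were called, against 40.4%, and between the lines without melphalan 3, against 50.2%. Leaving out single arrays gave 0 to 1 members for melphalan in U266/LR7 (1, ESR1, without its control), 4 to 6 in U266/s, 2 to 4 for the difference between the lines (2 without the U266/LR7 melphalan array) and 4 to 5 between the lines without melphalan. With cyclic loess KIT was also called lower with melphalan in U266/s (-0.42, adjusted p = 0.0447), and after a further quantile normalization FOXO3 was called in place of ETS1 for the difference between the lines (-0.73, adjusted p = 0.0215). Cyclic loess moved the median of all genes to -0.088 for melphalan in U266/s, against 0.075 as deposited, and to 0.118 for its difference between the lines, against -0.011. Higher genes made up 42.5% of calls in U266/s but 29.9% with cyclic loess, 51.3% with median centring and 53.4% with quantile normalization, and 45.6% in U266/LR7 but 34.4%, 36.3% and 35.8%. For the difference between the lines they made up 74.9%, but 55.1% after quantile normalization and 63.4% after centring. Calls over all genes for inhibitors ranged from 0 to 13 over all pairs, 0 to 27 in U266/LR7, 0 to 3 in U266/s and 0 to 215 for the change with melphalan, the last without the U266/s array with inhibitors. For melphalan in U266/LR7, 306 genes were called without its melphalan array and 250 without the array with both agents, against 1220, in U266/s 4258 without the control, against 7984, and for the difference between the lines 2443 when the U266/s control was left out and 2552 when the array of U266/LR7 with melphalan alone was, against 4394. The additive fit leaves out the difference in melphalan response between the lines and was run for the inhibitor comparisons only. The labels give no numbered replicates, so the matching of arrays by line and melphalan state in the fit is the only pairing used. Signal near background limits KIT, TIMP3 and, in U266/LR7, TRPS1.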
